A study of Macaca mulatta with 24 samples.

Results

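Stepwise CpGs are CpGs at which single animals had almost no methylation, an intermediate level or almost full methylation, with few values in between. They were chosen from their own levels in omental white adipose tissue (WAT) of 24 female rhesus macaques, measured by reduced-representation bisulfite sequencing (RRBS). A CpG of chromosomes 1 to 20 was taken when its lowest value was at most 5%, its highest at least 75%, and at least 95% of its values lay at a low step (at most 8%), a middle step (30% to 62%) or a high step (at least 75%). The rule also asked for a range of 70 points, which these limits already ensure. In all, 4079 CpGs met it, or 0.516% of the 790368 CpGs on these chromosomes. The whole table held 841143 CpGs. Another 11320 CpGs had the same range but did not keep to the steps, and serve below as the comparison of like range. The positions are those of the rheMac8 build, and the sequence and gene at each were not used here.

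The animals formed 4 groups of 6, and each animal was a separate library. All carried implants for 3 years, which held cholesterol in C and WSD and released testosterone in T and T+WSD. C and T ate monkey chow, and WSD and T+WSD ate a western-style diet. The labels give an age of 4 years for every animal, without saying at which stage of the study, while the study's methods describe the animals as older and past puberty at the biopsy. The labels number C and T+WSD from 1 to 12, and T and WSD from 13 to 24. The study chose the 6 of each group to represent its metabolic findings. The model gives testosterone from outside to intact females, and the biopsy is a whole piece of fat with all of its cell types. No expression values were used here, so the tissue was not checked against marker genes.

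A CpG is a cytosine followed by a guanine, and the cytosine can carry a methyl group on either copy of a chromosome. Bisulfite turns unmethylated cytosine into a base that is read as thymine, so a thymine that is already in the genome is read in the same way as an unmethylated cytosine. CpGs are also the sites at which cytosine mutates to thymine most readily, since deamination of methylated cytosine gives thymine. Methylation that differs between both copies of a chromosome is further known from imprinted genes and from sequence variants that act on CpGs near them. In bulk tissue, a middle level from methylation of a single copy in every cell and one from full methylation in part of the cells cannot be told apart.

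T 16 had a value at the fewest CpGs, 717554, against 767744 to 826713 in the other animals, and T 16, WSD 20 and T+WSD 12 stood apart in the counts given below. The reads behind each value are unknown beyond the authors' minimum of 10 in at least 4 animals of every group. At the stepwise CpGs 4.29% of values were missing, close to the 4.52% over chromosomes 1 to 20 and below the 6.57% at the other CpGs of the same range.

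The high step held most values. Of 93699 values at stepwise CpGs, 17.6% lay at the low step, 25.2% at the middle step, 54.9% at the high step and 2.23% between the steps. These shares describe what the rule selected. The levels within the steps are bounded by the windows of the rule and are given as a description. At the low step 87.7% of values were exactly 0. At the middle step the median was 46.9%, with 10% of values under 35.7% and 10% over 57.7%. At the high step the median was 95.2%, and 25.8% of values were exactly 100.

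**Figure D1:**
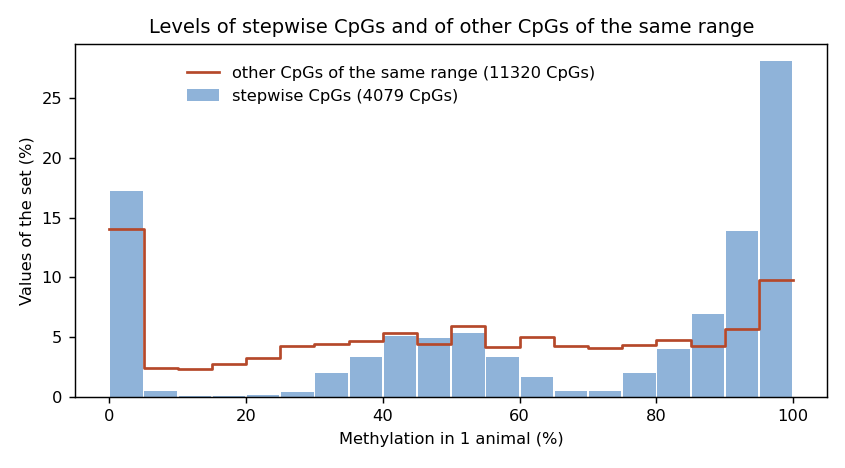
Methylation of single animals at the 4079 stepwise CpGs (bars) and at the 11320 other CpGs of the same range (line), as the percentage of each set's values in classes of 5 points. The stepwise CpGs have 3 separate peaks because the rule selected them, and 28.1% of their values lay in the top class, against 9.76% in the other set.

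The level of the middle step relative to the high step is largely set by the windows of the rule and is given as a description. At 2048 CpGs with at least 5 animals at both the middle and the high step, the ratio of the middle mean to the high mean had a median of 0.501, and 10% of CpGs lay under 0.451 and 10% over 0.553. It was below 0.5 at 48.5% of them. Animals at the middle step of the same CpG varied by a median SD of 7.23 points, over 2450 CpGs with at least 5 such animals. Values that fell between the steps were mostly those above the middle step, 1340 of 2089, while 749 lay between the low and the middle step. Such a value was present at 2089 CpGs, and at 1990 every value was on a step.

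Most stepwise CpGs showed all 3 steps, and the low step was usually the rare one. All 3 steps were present at 3767 CpGs and the middle step was absent at 312. More animals were high than low at 3264 CpGs (80.0%), more were low at 756, and the numbers were equal at 59. A single animal stood at the low step at 1639 CpGs, and a single animal at the high step at 223. Both outer steps held at least 2 animals at 2218 CpGs, and each of the 3 steps held at least 5 animals at 451.

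Each animal was then given a dose of 0, 1 or 2 for the low, middle and high step, and the doses of a CpG were averaged. The mean high dose, as a share of its maximum, had a median of 0.750 over the CpGs, and the quartiles were 0.575 and 0.861. Of values on a step, 42.9% were at the middle one at the 541 CpGs with a high dose from 0.4 to 0.6, and 12.8% at the 1646 CpGs with a high dose from 0.8. As the rule requires a low and a high animal at every CpG and limits the middle window, these shares are not compared with those that doses combined by chance would give.

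Most CpGs that lacked the middle step had few animals on an outer step. Of the 312 CpGs without the middle step, 226 had a single low animal and 40 a single high animal. The other 46 had at least 2 animals on both outer steps, and at 33 of these the smaller of the outer steps held 2 animals. The most even was chr6:166828892, chosen after its values were seen, with 11 animals low, 12 high and none in the middle.

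The stepwise CpGs were spread over all 20 chromosomes, from 3.82 per 1000 CpGs on chromosome 14 to 7.63 on chromosome 18. On chromosome X, which the rule left out, 59 of 26995 CpGs would have met it, or 2.19 per 1000, against 5.16 per 1000 on chromosomes 1 to 20.

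At the threshold, chr8:143100377 had the smallest range inside, with a lowest value at the limit of 5% and a highest of 77.8%, followed by chr3:811966 and chr7:39614552, which each ranged from 0 to 75%. The limit on the highest value alone kept out 17 CpGs, the closest being chr16:75128026, chr17:70902159 and chr3:51953951, with highest values of 72.7%, 72% and 71.4%. The limit on the lowest value alone kept out 1112, the closest being chr3:42374819, chr6:10142234 and chr15:6896245, each with a lowest value of 5.26%. Among CpGs that failed the range of 70 points, the closest was chr6:174398191, with a highest value of 69.2%, before chr9:106814774 and chr20:283661, both with 69.0%.

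Stepwise CpGs lay in methylated surroundings. At 2635 of them, at least 3 other CpGs were measured 2 to 100 bp away, and these had a median level of 91.1%. The same median was 76.0% around the other CpGs of the same range and 22.6% around all CpGs of chromosomes 1 to 20. The gap to the CpGs of the same range was narrower in other selections of CpGs. With nearby CpGs of wide range left out, the nearby medians were 92.1% in low-step and 92.5% in high-step animals for stepwise CpGs, and 79.1% and 83.5% for the others. When at least 2 animals were also required on both outer steps, they were again 92.1% and 92.5% for stepwise CpGs, and 87.7% and 88.96% for the others. Surroundings of at least 60% were found for 96.3% of the stepwise CpGs, 64.2% of the others of the same range and 42.01% of all CpGs. CpG density differed less, with a median of 3 other CpGs within 100 bp of a stepwise CpG and 4 around all CpGs.

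The high step, which the rule places at 75% or more, lay near surroundings that were mostly above that level. The comparison took 2252 of the 2635 CpGs with known surroundings and left out those with few high-step animals. All 54 CpGs with surroundings under 20% had a single high animal and were left out. Their high step had a median of 80%, so this choice favours closeness to the surroundings. At the 2252 CpGs the mean of the high-step animals lay a median of 3.26 points above the level of the nearby CpGs. At 82.6% of them it was within 10 points of that level. Pearson's r between the high-step mean and the nearby level was 0.414 across the 2252 CpGs. They are not replicates and share the same 24 libraries. Over all 2635 CpGs, the median high-step level was 95.8% where nearby CpGs were at 80% or more. It was 92.5% at the 11.4% of CpGs with surroundings of 60% to 80%, and 90% at the 43 with surroundings of 20% to 60%. The rule keeps it at 75% or more whatever the surroundings.

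Surroundings of low methylation were rare. Only 54 of the 2635 CpGs (2.05%) had nearby CpGs with a mean under 20%, and all 54 had a single animal at the high step. That animal was T 16 at 32 of them, WSD 20 at 19, and another animal at 3. They fell into 24 runs of neighbouring CpGs, 16 of them in T 16 and 6 in WSD 20, so they are not independent of each other. The single high values had a median of 80% and ran from 75% to 100%. CpGs with T 16 or WSD 20 as the only high animal cannot meet the rule without them, so the values without both animals follow largely from these counts: 3996 CpGs met the rule over the other 22 animals, and 5 of 2558 (0.195%) had surroundings under 20%. T 16 and WSD 20 together were the single high animal at 81 of the 223 CpGs with such an animal. The part of depth in this was not tested. T 16 had the fewest CpGs with a value and lacked 14.7% of all CpGs, while WSD 20 lacked 5.34%. Besides T 16, the animals that lacked more than WSD 20 were C 5 (8.73%), T 13 (7.23%), T+WSD 12 (7.20%), C 2 (6.05%), WSD 22 (5.94%) and T 14 (5.52%). They were the only high animal at 6, 7, 14, 4, 5 and 9 stepwise CpGs in that order, against 49 for T 16 and 32 for WSD 20.

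Nearby CpGs were examined to ask whether single CpGs or whole neighbourhoods moved in steps. Those that were not stepwise themselves were compared between animals at the low and at the high step of the stepwise CpG, at 2527 stepwise CpGs. Leaving out the stepwise neighbours favours small differences, and the values with them kept are given after the main ones. The median level of these nearby CpGs was 91.5% in low-step animals, 91.6% in middle-step animals and 92.1% in high-step animals. The difference, high minus low, had a median of 0.472 points with quartiles of −1.58 and 3.31, while the stepwise CpG itself differed by at least 67 points by the rule. It was under 10 points in size at 2264 CpGs (89.6%), over 20 points at 93 and under −20 points at 9. With stepwise neighbours kept, it was under 10 points at 83.4% of 2629 CpGs and over 20 points at 183 (6.96%). Where at least 2 animals were on both outer steps, these shares were 86.4% and 3.92% of 1402 CpGs.

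The other CpGs of the same range differed more in this respect. With nearby CpGs of wide range left out for both sets, 94.2% of 2471 stepwise CpGs and 62.5% of 6611 others had nearby CpGs under 10 points apart. Nearby CpGs were over 20 points higher in the high animals at 1.497% and 25.2% in that order. When only CpGs with at least 2 low and 2 high animals were taken, the shares under 10 points were 96.0% of 1318 and 80.8% of 2904, and those over 20 points 0.455% and 10.6%. No test is given, since CpGs are not replicates and both sets were chosen by their values.

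**Figure D2:**
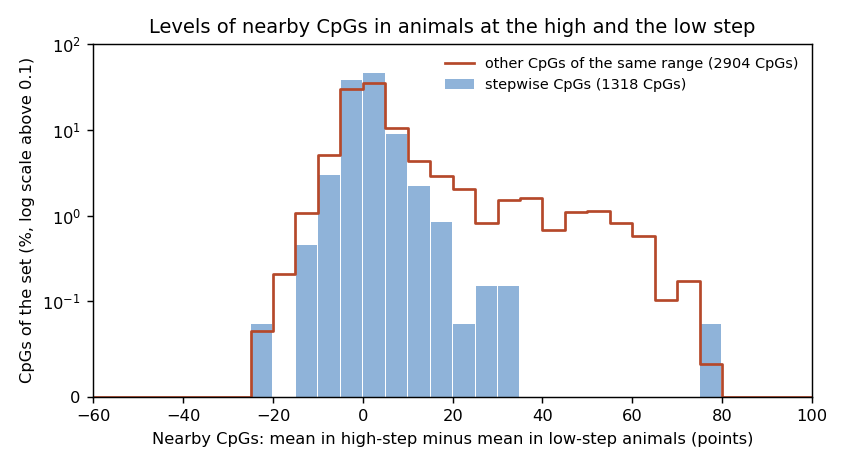
Difference in the mean level of nearby CpGs (2 to 100 bp away, none of wide range) between animals at the high and animals at the low step, in points, for CpGs with at least 2 animals on each outer step. Bars are the 1318 stepwise CpGs and the line the 2904 other CpGs of the same range, as a percentage of each set on an axis that is logarithmic above 0.1, and above 20 points lie 10.6% of the line's CpGs and 0.455% of the bars', which are sparse there but reach past 75 points.

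Distance made little difference. In the pairs of a stepwise CpG and 1 nearby CpG, again without CpGs of wide range, the median difference was 1.11 points at 2 to 10 bp (1420 pairs), 0.672 points at 11 to 25 bp (1809 pairs) and 0.101 points at 26 to 50 bp (2396 pairs). From 51 to 100 bp it was −0.174 points (2124 pairs). The share of nearby CpGs over 20 points higher lay between 1.88% and 2.77% from 2 to 1000 bp, and between 12.6% and 15.98% around the other CpGs of the same range.

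Among CpGs with values in all animals, all of them on a step, at least 5 animals on each step and 3 nearby CpGs, the 3 with the smallest and the 3 with the largest difference nearby are described in full. There were 78 candidates. At 69 of them the nearby CpGs differed by less than 10 points, and at 3 by more than 20.

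At chr20:3699338, 6 animals were low (0, median 0, to 1.19%), 10 were in the middle (42.6%, median 53.2%, to 59.6%) and 8 were high (93.6%, median 97.6%, to 100%). The 4 nearby CpGs, 16 to 50 bp away, had a mean of 97.5% in the low, the middle and the high animals, and the high and the low differed by 0.0110 points. C and T each had 2 animals on every step, WSD had 5 of its 6 animals in the middle, and T+WSD had 4 high animals. No group was confined to a single step, and WSD had no animal at the high one.

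At chr20:723403, 7 animals were at 0 to 1.49% (median 0), 11 at 34.8% to 52.5% (median 42.4%) and 6 at 89.5% to 100% (median 96.6%). The 4 nearby CpGs, the closest 7 bp away, stood at 95.9% in both low and high animals and at 95.1% in middle animals. Of the 7 low animals 4 were in WSD.

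At chr8:9201803, 5 animals were at 0 to 0.64%, 7 at 31.4% to 52.6% (median 47.5%) and 12 at 89.9% to 100% (median 95.6%). Its 3 nearby CpGs, the closest 3 bp away, stood at 90.7% in low, 89.2% in middle and 90.8% in high animals. In these 3 examples a CpG read as fully unmethylated lay within 16 bp of CpGs that were read as methylated in the same animals.

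The opposite end was rarer. At chr6:43640805, 6 animals were at 0 to 0.99%, 13 at 33.7% to 61.1% (median 44.2%) and 5 at 82% to 84.1% (median 82.9%). The 9 nearby CpGs rose with the steps, from 45.4% in low to 64.4% in middle and 77.9% in high animals. By their means each of the 9 was higher in the high than in the low animals, and the lowest mean in the low animals was 27.2%.

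At chr17:38750769, 5 animals were at 0 to 1.49%, 14 at 45.1% to 57.1% (median 50.5%) and 5 at 90.3% to 94.3% (median 92.7%). The mean of the 6 nearby CpGs was 59.6%, 72.1% and 87.1% in low, middle and high animals. Most of that came from a CpG 100 bp away, at 0, 53.4% and 97.9%, and another 64 bp away, at 18.8%, 22.9% and 54.8%. The other 4 differed by 6.80 to 9.47 points between the outer steps.

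At chr1:248056 the nearby CpGs moved the other way. Here 11 animals were at 0 to 2.15%, 7 at 30.8% to 49.2% (median 42.7%) and 6 at 80% to 94.9% (median 81.0%). The 3 nearby CpGs, all within 21 bp, stood at 84.9% in the low, 63.3% in the middle and 60.1% in the high animals. The low and high animals were spread over the groups at each of the 6 CpGs, except that WSD had no high animal at 4 of them, T no low animal at chr20:723403 and chr8:9201803, and C no low animal at chr17:38750769.

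**Figure D3:**
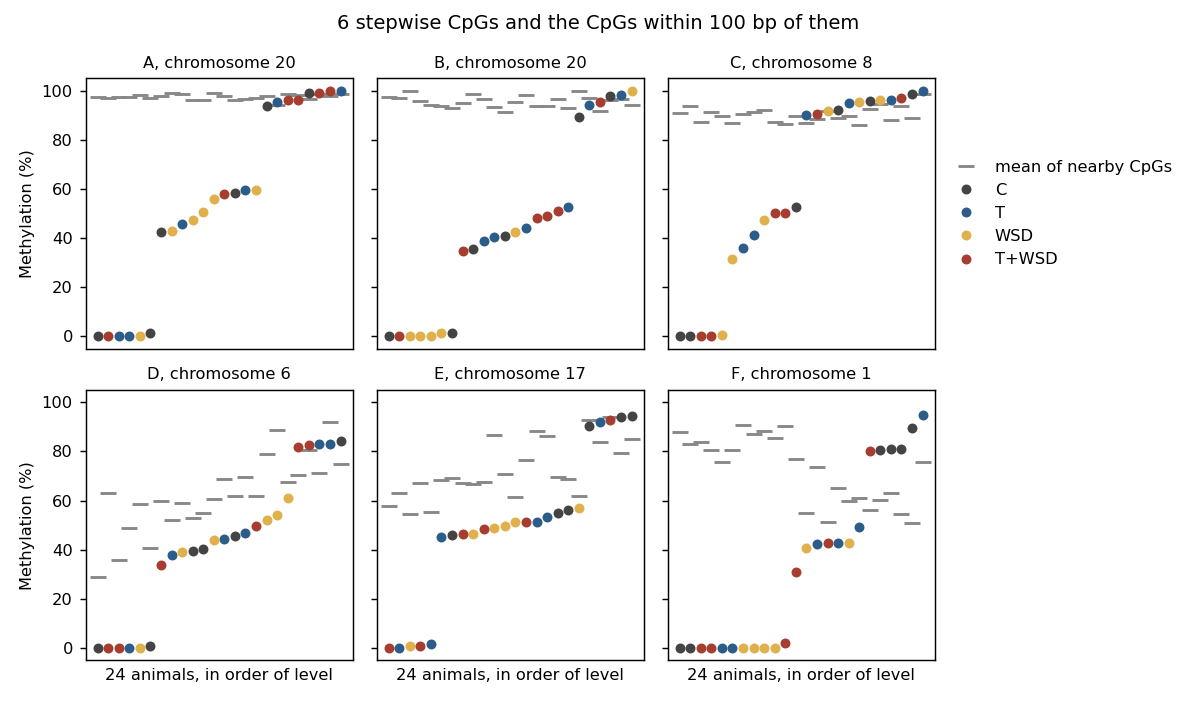
Methylation (%) of 6 stepwise CpGs in the 24 animals, in order of level and coloured by group, with the mean of the nearby CpGs in the same animal as a grey dash. Panels A to C are chr20:3699338, chr20:723403 and chr8:9201803, with level dashes, and panels D to F are chr6:43640805, chr17:38750769 and chr1:248056, where the dashes follow or mirror the points.

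Nearby CpGs that were not stepwise themselves rarely moved by large amounts. With stepwise neighbours left out and at least 2 animals on both outer steps, they differed by more than 40 points around 5 stepwise CpGs. Leaving those neighbours out lowers such counts: differences over 20 points were found at 26 CpGs (1.93%) without them and at 55 (3.92%) with them. Of the 5 CpGs, 2 lay in a run on chromosome 17 described below and 3 on chromosome 13, chosen after their values were seen. From chr13:75432609 to chr13:75432814, the 16 CpGs measured had an average of 0.247% to 2.10% in the 3 low animals T 14, WSD 20 and T+WSD 9. It was 22.1% to 50.3% in 7 middle animals and 69.8% to 91.3% in 13 high animals. Only 3 of the 16 CpGs met the rule, at chr13:75432709, chr13:75432720 and chr13:75432727, yet the order of the 3 classes held at every CpG by their means. The 13 high animals comprised 4 in C and 3 in each of the other groups.

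Links between stepwise CpGs were examined next. Another stepwise CpG lay within 300 bp of 479 of them (11.7%), against 28.7% for the other CpGs of the same range among themselves, a set 2.78 times as large. Among the 2218 with at least 2 low and 2 high animals, a smaller set, 170 (7.66%) had another of these within 300 bp. The median distance to the next stepwise CpG was 76079 bp. Joined within 300 bp, they formed 3813 runs, of which 3600 held 1 CpG, 187 held 2, 17 held 3 and 9 held 4 or more.

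Neighbours up to 100 bp apart often placed the animals on the same steps, and pairs farther apart did so less often. The squared correlation of doses between the CpGs of a pair, r2, was at least 0.8 in 62 of 92 pairs (67.4%) 1 to 10 bp apart and in 111 of 185 pairs (60%) 11 to 50 bp apart. It was so in 42.1% of 38 pairs from 51 to 100 bp and in 9.80% of 51 pairs over 100 and up to 300 bp apart, and in 15.1% of 53 pairs from there to 1000 bp. Of 364 pairs 1 to 10 kb apart 9.34% reached it, of 2461 pairs up to 100 kb apart 2.36%, and of 20000 pairs drawn from different chromosomes 0.0400%. Pairs share the 24 animals, and pairs in a run share CpGs, so no test is given.

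Part of this rested on CpGs where a single animal made up an outer step. Among CpGs with at least 2 low and 2 high animals, 59.1% of 22 pairs up to 10 bp apart, 39.1% of 46 pairs up to 50 bp and 33.3% of 9 pairs up to 100 bp reached an r2 of 0.8. The share was 17.6% of 17 pairs up to 300 bp and 26.3% of 19 pairs up to 1000 bp, so it did not fall steadily with distance. For all pairs within 50 bp the share was 62.5% of 277, and 45.6% of 68 under this limit. Without T 16 and WSD 20 it was 49.4%. Within 50 bp, many pairs thus placed the animals differently, and 37.5% of all pairs there stayed under an r2 of 0.8.

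**Figure D4:**
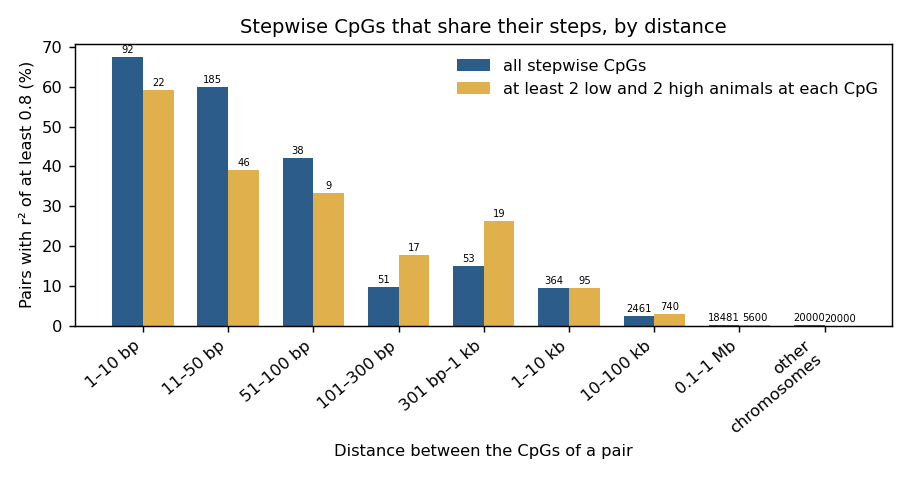
Percentage of pairs of stepwise CpGs whose doses had an r2 of at least 0.8 over the animals, by distance, for all stepwise CpGs and for those with at least 2 low and 2 high animals. Numbers above the bars are pairs, and the share fell from 67.4% at 1 to 10 bp to 0.0400% between chromosomes in the first set.

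Some close pairs were mirror images. At 3 pairs within 300 bp, chosen after their values were seen, the doses had an r of −1. At chr1:16403555, 16 animals were at 0 to 4.55%, 2 at 50% and 51.3%, and 3 at 90% to 95.7%. At chr1:16403561, 6 bp away, all 16 low animals were high, at 89.5% or more, the same 2 were in the middle and the 3 high animals T 17, WSD 19 and WSD 20 were at 0. In each of these animals the levels of both CpGs added up to between 89.5 and 101.4 points.

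The second pair lay on chromosome 11, 5 bp apart. At chr11:109606318, 13 animals were at 0, 9 were at 40.6% to 55.8% and 2 were at 92.1% and 98.7%. At chr11:109606323 these 13 were at 91.7% to 99.3%, the 9 at 42.5% to 56.2% and the 2, C 6 and WSD 20, at 0. The sum of both CpGs ran from 85.9 to 99.3 points over the 24 animals.

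The third pair was chr19:51001030 and chr19:51001052, 22 bp apart. The first had 7 animals at 0, 13 at 41.5% to 58.4% and 3 at 90.6% to 95.3%. At the second CpG the 7 were at 96.9% to 100% and the 3, C 3, T 16 and T+WSD 8, at 0 to 1.98%. No animal in any of the 3 pairs was at the low step of both CpGs or at the high step of both.

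The table also lists some CpGs at both of their cytosines, which sit at adjacent positions on opposite strands. Of 11248 such adjacent pairs on chromosomes 1 to 20, 17 contained a stepwise CpG and 3 consisted of 2 of them. In those 3, 64 of 66 comparisons of an animal placed it on the same step, and Pearson's r of the levels was 0.914 to 0.942. Over the 16 pairs that allowed an r, it was above 0.9 in 9 and the median was 0.913. The strands parted at some CpGs, of which 3 were chosen after their values were seen. Among them was chr5:25393797, where the level averaged 80.3% while the other strand averaged 32.5% (r = −0.232 over 22 animals). They parted also at chr4:43509064, where the other strand averaged 87.7% in low-step and 87.9% in high-step animals. At chr14:8761523 T 16 was at 75% and the other 22 animals at no more than 2.94%, while the other strand was at 0 in all 24 animals, T 16 included.

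A single run held 8 and 4 runs held 7, and of these the ones with the longest span are described first. The run from chr2:142948383 to chr2:142948447 had 8 stepwise CpGs among 11. T 16 stood at 81.8% at all 8, the other 20 animals with values were at no more than 8%, and 3 animals had no value. At the 3 remaining CpGs in the run every animal was at 6.25% or below, T 16 included. The reads behind these equal values are unknown.

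From chr17:738132 to chr17:738566 there were 7 stepwise CpGs among 31. WSD 20 was at 0 at the 6 at which it had a value, and WSD 24 averaged 14.8% over the 7. The averages of the other 22 animals ran from 81.7% to 98.9%. The 7 did not form a single pattern, since at chr17:738405 T+WSD 11 was the only low animal and 7 animals were at the middle step.

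From chr10:60479013 to chr10:60479073, 7 of 8 CpGs were stepwise. T+WSD 11 was at 0 at all 7, T+WSD 9 averaged 49.0%, T 17 averaged 65.4%, and the averages of the other 20 animals with values were 82.1% to 96.8%. The remaining CpG followed them, with an r of 0.979 with the run and a lowest value of 22.2% in T+WSD 11. In the other tied runs, also chosen after their values were seen, a single animal was high. From chr14:8761474 to chr14:8761523 all 7 CpGs were stepwise, with T 16 at the high step and 22 animals low. From chr2:56456001 to chr2:56456020 it was WSD 20 at 7 of 8 CpGs, with 15 animals low by their averages over the run. Of the 9 runs of 4 or more, 2 had T 16 and 3 had WSD 20 as the only high animal at all of their stepwise CpGs, so 5 of the 9 were set by 1 of these libraries.

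The animals were compared to ask whether the treatments went with the steps. For C, the share of an animal's stepwise values at the middle step averaged 25.6% ± 2.26 (SD, n = 6), from 22.4% to 28.9% with a median of 25.8%. T averaged 24.4% ± 2.21, from 20.2% to 26.5% (median 24.8%), and WSD 24.9% ± 1.67, from 21.9% to 26.8% (median 25.4%). T+WSD averaged 25.8% ± 2.66, from 20.9% to 28.98% (median 26.4%). All groups overlapped. The rule chose the CpGs by the same values but without regard to the groups, and the animals' labels were permuted over the fixed set of CpGs. T differed from C by −1.18 points (exact permutation test, two-sided, p = 0.394), and WSD differed by −0.677 points (exact permutation p = 0.567). T+WSD differed by 0.188 points (exact permutation p = 0.883). The differences moved with single animals, to −0.274 points for T without T 16 and −1.85 without C 2, and to −0.102 points for WSD without WSD 20 and −1.27 without C 2. That of T+WSD ran from −0.543 points without T+WSD 7 to 1.11 points without T+WSD 12 and was negative in 5 of the 24 cases with 1 animal left out, and that of WSD was 0.127 points with stricter windows, so neither kept its sign. Adjusted over the 3 comparisons, which share the C animals, the exact permutation p-values were 0.851, 0.851 and 0.883. None was larger than the spread between animals, while the possible splits of the animals could have given a p as small as 0.00216.

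**Figure D5:**
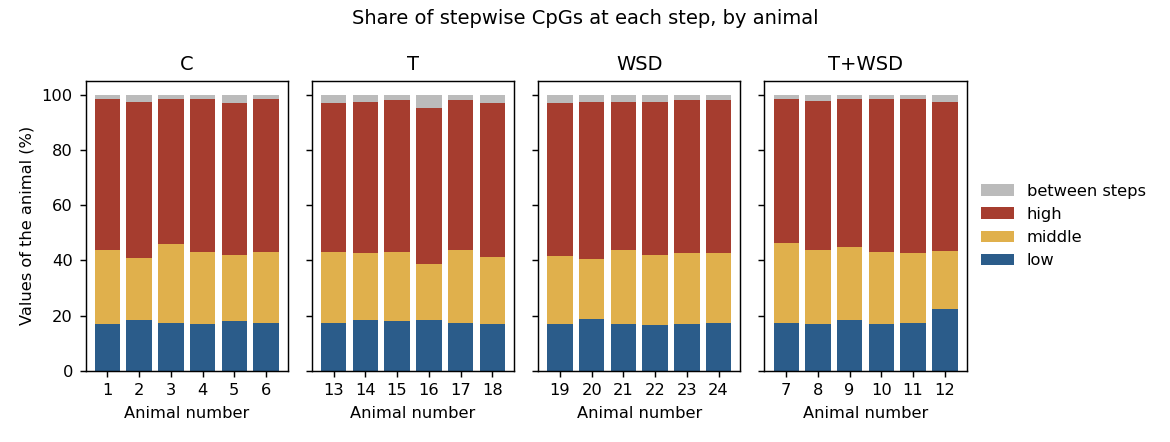
Percentage of each animal's values at stepwise CpGs that lay at the low, middle and high step or between the steps, by animal number and group (1 bar for each of the 24 animals). T+WSD 12 has the largest low share, 22.4%, and T 16 the smallest middle share, 20.2%.

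The middle share of an animal was also set beside the share of the table's CpGs without a value in it, since the read numbers of the libraries were not used here. In animals 13 to 24 the relation rested on T 16. There Pearson's r was −0.746 and Spearman's rho −0.315, and without T 16 they were −0.265 and −0.109 over 11 animals. In animals 1 to 12 r was −0.828 and rho −0.762, and without C 5, the animal of that series farthest from its median, −0.916 and −0.718. Over all 24 animals r was −0.752 and rho −0.649, and without T 16 and C 5, the animals farthest from the median, −0.685 and −0.556. Which values are present bears on the rule as well as on the missing share, so these coefficients are a description and no p is given. The part of missing values in the differences between groups was not tested.

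Sharing of steps was compared between pairs of animals within and across the groups. Of the stepwise CpGs at which both had a value on a step, the animals of a pair were on the same step at 53.2% on average, with a range of 49.0% to 62.4% over 276 pairs. Pairs within a group averaged 53.5% and pairs between groups 53.1%. The difference of 0.341 points had a permutation p of 0.187 (100000 relabellings, two-sided). It was 0.116 points without WSD 19, 0.117 without WSD 21, 0.128 without WSD 22 and 0.508 without T+WSD 10. For animals 1 to 12 and 13 to 24, pairs within a series minus pairs across them gave −0.00671 points (permutation p = 0.976). Groupings by diet and by implant, added after the data were seen, gave −0.103 points (permutation p = 0.634) and 0.575 points (permutation p = 0.0201). Adjusted over the 4 groupings, the permutation p-values were 0.374, 0.976, 0.846 and 0.0805, and none passed.

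The pairs that shared the most steps formed 3 closed sets of animals. C 1, C 4, WSD 19, WSD 21 and WSD 22 made up 10 pairs that were on the same step at 59.3% to 62.4% of the CpGs, the highest being WSD 21 with WSD 22. T 14, T 15 and T+WSD 7 made up 3 pairs at 58.8% to 61.7%, and T 17, WSD 23 and T+WSD 10 another 3 at 58.8% to 60.2%. These were the 16 highest of the 276 pairs, and the other 260 ran from 49.0% to 57.2%, the value of C 2 with T 14. Of the 16 pairs 5 lay within a group and 11 across groups. The 16 were also the highest over CpGs with at least 2 low and 2 high animals, at 48.9% to 53.3% against at most 47.4% in any other pair, and over 1 stepwise CpG per 1 kb. Over the odd chromosomes 13 of them stood above all other pairs, and over the even ones 14. The sets were chosen after these values were seen and get no test. The other selections are parts of the CpGs that gave the sets, so they are no independent check. Leaving out WSD 19, WSD 21 or WSD 22, which are in the largest set, gave 0.116 to 0.128 points for pairs within minus pairs between groups. The set was chosen from the same values, and its part in that difference was not tested.

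Every group contained the full set of steps at many CpGs. All 3 steps were found among the 6 C animals at 33.3% of the stepwise CpGs. The same held for 31.8% among T animals, 30.1% among WSD animals and 35.2% among T+WSD animals. The mean high dose over all of them was 0.691, 0.692, 0.695 and 0.683 in that order.

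In the fit over all CpGs, no stepwise CpG was called differentially methylated (a DMC, with an adjusted p under 0.05 and group means over 10 points apart). For the interaction the limit of 10 points applied to the difference of differences, T+WSD minus WSD against T minus C. The count was 0 of 4079 in T, WSD and T+WSD against C and in the interaction of both factors, by limma with Benjamini-Hochberg adjustment over the whole table. Calls made up 0.00559%, 0.00559%, 0.0069% and 0.0174% of all CpGs, which corresponds to less than 1 CpG in a set of 4079. The share for T+WSD rested on 58 calls and on single animals. It was 0.000357% without C 1 (3 calls), 0.000951% without C 3 (8), 0.00178% without T+WSD 9 (15) and 0.00226% without T+WSD 8 (19). Without C 4, C 5, T+WSD 10 or T+WSD 12 there were 22 to 35 calls, and without any other single animal 42 to 81. The counts for T, WSD and the interaction stayed within 1.5 times of the main ones without single animals. Unadjusted p-values under 0.05 were found at 247, 212, 237 and 220 stepwise CpGs, or 6.06%, 5.20%, 5.81% and 5.39%, against 5.58%, 6.28%, 7.61% and 5.42% of all CpGs. The other 11320 CpGs of the same range held 10, 10, 1 and 14 DMCs, or 0.0883%, 0.0883%, 0.00883% and 0.124% of them. With untransformed rates, the log-ratio scale, only the groups compared or only complete CpGs the count among stepwise CpGs was also 0 wherever it was fitted. It reached 1 or 2 (0.0245% or 0.049%) when certain animals were left out, namely C 1, C 3, C 5 or WSD 24 for WSD, T+WSD 10 for T+WSD, and C 1, C 3, C 4 or C 5 for the interaction. Of all CpGs the same fits called 0.00416% to 0.00785% for WSD, 0.0038% for T+WSD and 0.0149% to 0.0165% for the interaction, and nothing is read from counts this small.

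The sizes of the differences between group means at stepwise CpGs are given as a description, without the same values over all CpGs. The absolute difference from C had a median of 13.4 points for T, 11.7 points for WSD and 12.1 points for T+WSD, and was over 30 points at 438, 347 and 409 CpGs. The range required by the rule favours such differences and the comparisons share the C animals, so nothing about the treatments is read from these sizes. The values of C and of the treated group did not overlap at 12 stepwise CpGs for T (0.294%), 12 for WSD (0.294%) and 17 for T+WSD (0.417%). Over all CpGs these shares were 0.357%, 0.383% and 0.678%, and over the other CpGs of the same range they were 0.928%, 0.839% and 1.03%. The shares of the stepwise CpGs lie below those of all CpGs in each comparison, farthest for T+WSD, and nothing is read from the differences.

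The lowest adjusted p against C was at chr14:127799200 in T+WSD, chosen after its values were seen. Its values ran from 90.6% to 100% in C (median 95.9%, n = 6), from 87.8% to 100% in T (median 92.1%, n = 6), from 85.4% to 100% in WSD (median 86.7%, n = 5) and from 2.08% to 90% in T+WSD (median 38.5%, n = 5). Only T+WSD animals left the high step, and 1 of them stayed on it. The difference of T+WSD from C was −59.6 points, with a limma adjusted p of 0.0950, and the CpG had no value in 1 animal each of WSD and T+WSD. It was the 1 stepwise CpG (0.0245%) called in T+WSD at an adjusted p under 0.1 by limma, a threshold that 0.0269% of all CpGs passed.

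At chr3:11604408, also chosen after its values were seen, C ran from 0 to 51.5% (median 0.675%), T from 32.1% to 89.5% (median 62.7%), WSD from 48.7% to 83.1% (median 79.7%) and T+WSD from 33.3% to 46.98% (median 40.9%), with 6 animals each. The medians placed C at the low step and WSD at the high step, and C overlapped each of the other groups. The difference of WSD from C was 58.8 points (limma adjusted p = 0.116), and the interaction was −80.9 points (limma adjusted p = 0.130).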

How the data were processed

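RRBS libraries of omental WAT from 24 animals were compared. Per the labels and the study's methods, the authors checked reads with FastQC 0.11.5, trimmed them with Trim Galore 0.4.2 and aligned them to rheMac8 with Bismark 0.16.1. The authors deposited percent methylation at each CpG and animal, without scaling, for CpGs covered at least 10 times in at least 4 animals of each group. Depth beyond that minimum is unknown, and the authors' summary statistics of the libraries were not used here, so no read-based interval was computed. Missing values were left out.

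Members, lists and tests were chosen with earlier results of these data known. Steps, links and nearby levels were computed with Python 3.11.15, numpy 2.4.6, pandas 2.3.3 and scipy 1.17.1, and figures with matplotlib 3.10.9. The level of nearby CpGs was averaged after each CpG was centred on its own mean. Differences between groups were fitted on arcsine-transformed rates of 841143 CpGs with limma 3.58.1 in R 4.3.3 (empirical Bayes, 4 groups in 1 fit), and the scripts were tested on simulated data. Other values were compared by exact permutation of 6 against 6 animals or by 100000 relabellings. The animals are the replicates. CpGs named were the 3 runs with the most stepwise CpGs (ties by longer span, then by position), the 3 smallest and 3 largest differences nearby, any DMC and 3 CpGs on either side of the threshold, and all other CpGs named were chosen after their values were seen. Alternatives covered step windows, the share of values on a step, missing values, distances, linked CpGs, transformation, threshold and each animal in turn. Several were added after the data were seen: outer steps of at least 2 animals, T 16 and WSD 20 left out together, single animals left out for links and nearby CpGs, groupings by diet and implant, and stepwise neighbours kept. No batch is given in the labels.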

Additional observations from a re-analysis of the deposited data

Results flagged for a closer look

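For each animal 7 measures were examined in each of the 4 groups, 28 sets of values in all, for an animal whose gap to its nearest neighbour took up more than 0.625 of the group's range. In 6 sets such an animal was found. The measures overlap and come from the values that chose the CpGs, so this number is not compared with chance. T 16 was the only animal at the high step at 49 stepwise CpGs, against 4 to 9 for the other T animals, and the only animal at the low step at 107, against 66 to 74. Its middle share was 20.2%, against 24.5% to 26.5%. WSD 20 was the only animal at the high step at 32 stepwise CpGs, against 3 to 7 for the other WSD animals, and its low share was 18.7%, against 16.6% to 17.2%. T+WSD 12 had a low share of 22.4%, against 16.9% to 18.3% in the other T+WSD animals. Among CpGs with at least 2 low animals, whatever the number of high ones, its low share was 31.1%. It was 24.97% to 27.7% in the other 23 animals, T 16 (25.8%) and WSD 20 (27.3%) included. The middle share of T+WSD 12 was 23.9% there, next to 24.4% in T 16 and 26.5% to 33.7% in the other 22 animals. T 16, WSD 20 and T+WSD 12 lacked a value at 14.7%, 5.34% and 7.20% of all CpGs, and the part of this in the values was not tested.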

How the results depend on the processing

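The number of stepwise CpGs depended on the limits set. It was 1590 with stricter windows (at most 5%, 35% to 57%, at least 80%), 9426 with wider ones (at most 10%, 25% to 67%, at least 70%), 1990 when all values had to be on a step, 6145 when 90% had to be and 2359 for CpGs with a value in every animal. It was 4138 with chromosome X and 3951 to 4105 without single animals. Stricter windows gave low, middle and high shares of 16.1%, 18.4% and 62.8%. Wider ones gave middle and high shares of 33.0% and 48.9%, complete CpGs gave 28.8% and 52.5%, and the high share was 53.5% without T 16 and WSD 20.

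CpGs with a neighbour were 10.1% within 100 bp, 13.3% within 1000 bp, 8.68% with stricter and 17.6% with wider windows, and 10.6% without T 16 and WSD 20 (11.1% to 12.03% without single animals). Nearby CpGs differed by under 10 points at 84.9% with wider windows and at 91.7% with at least 2 low and 2 high animals (88.7% to 90.6% without single animals), and at 83.4% with stepwise neighbours kept. The other settings gave 88.5% to 90.7%, near the main 89.6%, and as neighbouring CpGs are not independent this is no measure of stability. Pairs within 50 bp with an r2 of 0.8 were 45.6% with at least 2 low and 2 high animals, 49.4% without T 16 and WSD 20, and 57.6% to 66.4% without single animals.

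The middle share of WSD minus C was 0.127 points with stricter windows, a change of sign. T+WSD minus C was −0.132 points without T 16 and WSD 20 and ran from −0.543 to 1.11 points without single animals, negative without C 2, C 5, WSD 24, T+WSD 7 or T+WSD 9. Over all alternatives the exact permutation p adjusted over the 3 comparisons was 0.435 to 0.972, and the cause of the changes of sign was not tested. T minus C ran from −1.85 to −0.274 points and WSD minus C from −1.27 to −0.102 points without single animals. The agreement within groups kept its sign and ran from 0.116 points without WSD 19 to 0.508 without T+WSD 10, with a permutation p of 0.0685 to 0.653.

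At an adjusted p under 0.1, 1 stepwise CpG (0.0245%) was called in T+WSD, against 0.0269% of all CpGs. Without single animals the calls ranged from 0 to 2 for WSD, from 0 to 1 for T+WSD and from 0 to 2 for the interaction, and were 0 for T. Their cause was not tested. No paired analysis was possible because the groups share no animal numbers. Unknown depth limits any reading of single values, since a level from 10 reads moves in coarse steps, and 6 animals a group limit what differences can be seen.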
